A study of Mus musculus with 14 samples.

Results

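Cytosolic ribosomal protein genes were followed in RNA from 3 brain regions of mice labelled CARIP-/- and of wild-type mice, all of the C57BL/6 strain. The cerebellum gave 3 knockout and 3 wild-type libraries, and the cerebral cortex and the hippocampus gave 2 of each. The labels give neither age nor sex, do not say how the allele was made, and do not say which libraries came from the same mouse. No gene of the table carries the name CARIP, so the loss of the targeted transcript was not checked. Members were the protein-coding genes named Rpl or Rps with a number and at most 1 suffix letter, together with Rplp0 to Rplp2 and Rpsa, that had at least 10 reads in at least 2 libraries. Of 48440 genes in the table, 80 protein-coding genes matched the name and 78 were members, 47 of the large (60S) and 31 of the small (40S) subunit. All 78 were among the 24680 genes tested. The remaining pair, Rpl10l and Rpl39l, had 0 and 4 reads over all 14 libraries. The knockout cortical library 2 and the wild-type cerebellar library 2 stood apart from their regions, in marker genes of other cells and in the members' levels, and the main counts and medians are given with and without them.

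The cytosolic ribosome translates nuclear-encoded mRNA. Its small subunit decodes the message and its large subunit joins the amino acids, and each ribosome carries 1 copy of nearly every ribosomal protein, so cells have to make the proteins in matched amounts. The mRNAs of these genes belong to the TOP class: they begin with a C followed by a run of pyrimidines, through which the mTORC1 kinase pathway controls their translation. In brain, neurons with large cell bodies and dense Nissl substance are rich in ribosomes, whereas the granule cells that make up most of the cerebellum are small with little cytoplasm.

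The start sites of a few members are shown because the pyrimidine run is the feature that the family is known for. Each line gives 10 bases before and 20 bases from the annotated start, 5′ to 3′ on the coding strand, from RefSeq promoters of GRCm38.p6, with the run of C and T nearest the start in capitals where it begins with C and has at least 4 further pyrimidines.
Rps6: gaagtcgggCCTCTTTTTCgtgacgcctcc
Rplp2: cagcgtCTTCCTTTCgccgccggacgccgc
Rpl38: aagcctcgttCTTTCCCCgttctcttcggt
Rps27: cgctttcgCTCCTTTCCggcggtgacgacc
Rps2: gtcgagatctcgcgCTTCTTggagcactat
Rps27l: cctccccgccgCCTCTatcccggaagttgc
Rpl41: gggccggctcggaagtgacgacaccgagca
Rps15: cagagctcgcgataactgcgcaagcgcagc
These windows lie at chr4:86857348-86857377 (minus strand), chr7:141447641-141447670 (plus), chr11:114668570-114668599 (plus), chr3:90213629-90213658 (minus), chr17:24720053-24720082 (plus), chr9:66946076-66946105 (plus), chr10:128549149-128549178 (minus) and chr10:80292421-80292450 (plus), in the order of the lines. In Rps6, Rplp2, Rpl38 and Rps27 a C stands at the annotated start and at least 4 pyrimidines follow. Rps2 has its run 4 bases and Rps27l 1 base downstream of the annotated start, and the windows of Rpl41 and Rps15 hold no such run.

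Promoters were matched for 58 members, with 70 annotated starts. A C at the start with 4 or more pyrimidines after it stood at 18.6% of the members' starts and at 2.51% of all 32851 starts of the table. Such a run within 5 bases of the start was found at 42.9% of the members' starts and 18.3% of all. The letters CCGGAAG, on either strand of the 250 bases before to 50 bases after a start, occurred in 35.7% of the members' promoters and 8.86% of all. AAGATGG occurred in 15.7% against 6.34%, and TATAAA in 8.57% against 13.6%. The members with and without a run near the start had median log2 differences between cerebellum and hippocampus, described below, of -0.55 (28 genes) and -0.61 (30 genes), a gap that was not tested.

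Ribosomal protein mRNA was lowest in the cerebellum. Levels are given in CPM, read counts brought to a common library size, after TMM scaling, which corrects for the composition of each library. Summed over the 78 genes, the level was 3620 ± 526 CPM in the cerebellum (SD, n = 6), 5508 ± 1330 CPM in the cortex (SD, n = 4) and 5578 ± 205 CPM in the hippocampus (SD, n = 4). The 6 cerebellar libraries lay between 3174 and 4562 CPM, and the cortical libraries between 4634 and 7481 CPM. The hippocampal libraries lay between 5300 and 5765 CPM. Without the 2 libraries that stood apart the sums were 3432 ± 282 CPM in the cerebellum (SD, n = 5) and 4850 ± 243 CPM in the cortex (SD, n = 3). All cerebellar sums were thus below all cortical and hippocampal sums, with the gap to the cortex resting on the wild-type cerebellar library 2 (4562 CPM) and the wild-type cortical library 3 (4634 CPM). The cortical and hippocampal sums overlapped, since the knockout cortical library 2 (7481 CPM) stood above every hippocampal library and the other cortical libraries (4634 to 5114 CPM) below. The members took 0.349% to 0.650% of each library's reads. The large subunit's sum was 1.36 to 1.44 times that of the small subunit in every library, so the ratio moved far less than the sum.

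**Figure D1:**
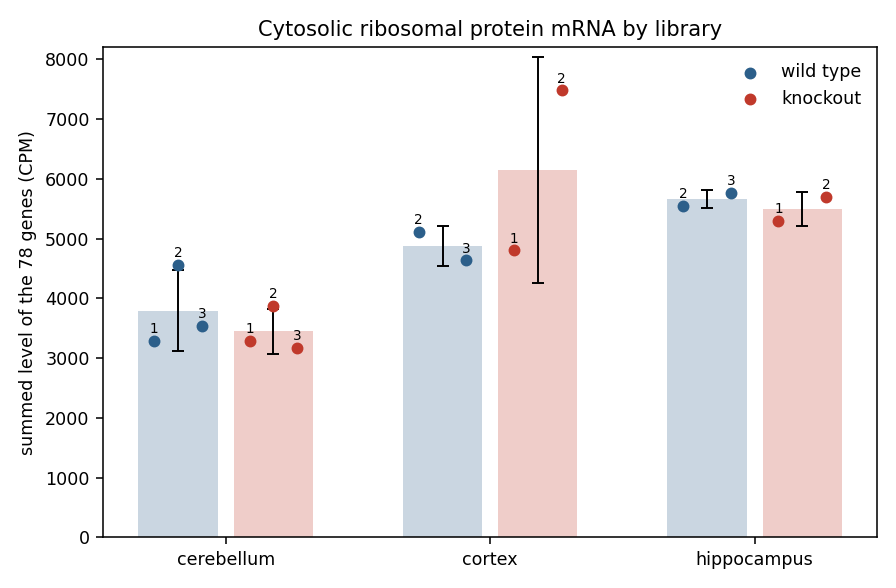
Summed level of the 78 cytosolic ribosomal protein genes in each library (y axis, CPM) by region (x axis); points are libraries labelled with their replicate number, bars are group means and whiskers are SD (n = 3 per genotype in the cerebellum, n = 2 elsewhere). The 6 cerebellar libraries lie between 3174 and 4562 CPM, below all others, and the knockout cortical library 2 stands highest at 7481 CPM.

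Against the cortex, 60 of the 78 members differed in the cerebellum, 59 of them lower and 1 higher, at an adjusted p under 0.05 (edgeR quasi-likelihood test over all 14 libraries, Benjamini-Hochberg over 24680 genes). Of all genes tested, 48.4% differed, 25.3% lower and 23% higher. The members' median log2 difference was -0.53, and that of all genes 0.01. Against the hippocampus, 67 members were lower and 0 higher (0 higher also at an unadjusted p under 0.05 and by DESeq2), beside 24.7% of all genes lower and 22.6% higher, and the medians were -0.57 and 0.02. The 2 comparisons share the cerebellar libraries. In both, 58 members were lower, beside 18.9% of all genes, and 9 members passed in neither. All cerebellar libraries lay below all cortical ones for 29 members (18% of all genes) and below all hippocampal ones for 57 members (22.3% of all genes). Without the 2 libraries that stood apart these counts were 45 (25.6% of all genes) and 67 (25.6% of all genes), and 4 members lay wholly above the cortex (24.1% of all genes). The members' own levels helped to set those libraries apart, so values without them, here and below, are no separate support for a difference. Between the wild-type groups alone, 15 members were lower against the cortex (16.5% of all genes) and 33 against the hippocampus (16.7% of all genes), with medians of -0.29 and -0.49. Without the knockout cortical library 2 alone, 37 members differed from the cortex (46% of all genes), with a median of -0.33. Without the knockout cortical library 2 and the wild-type cerebellar library 2, the medians were -0.42 and -0.65, with 57 members lower against the cortex (26.3% of all genes) and 68 against the hippocampus (29% of all genes).

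Both subunits took part. Against the cortex, 36 of 47 large-subunit and 23 of 31 small-subunit genes were lower, beside 25.3% of all genes, with medians of -0.48 and -0.56. Against the hippocampus 42 and 25 were lower, beside 24.7% of all genes, with medians of -0.55 and -0.63. The 78 members lie on 19 chromosomes.

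**Figure D2:**
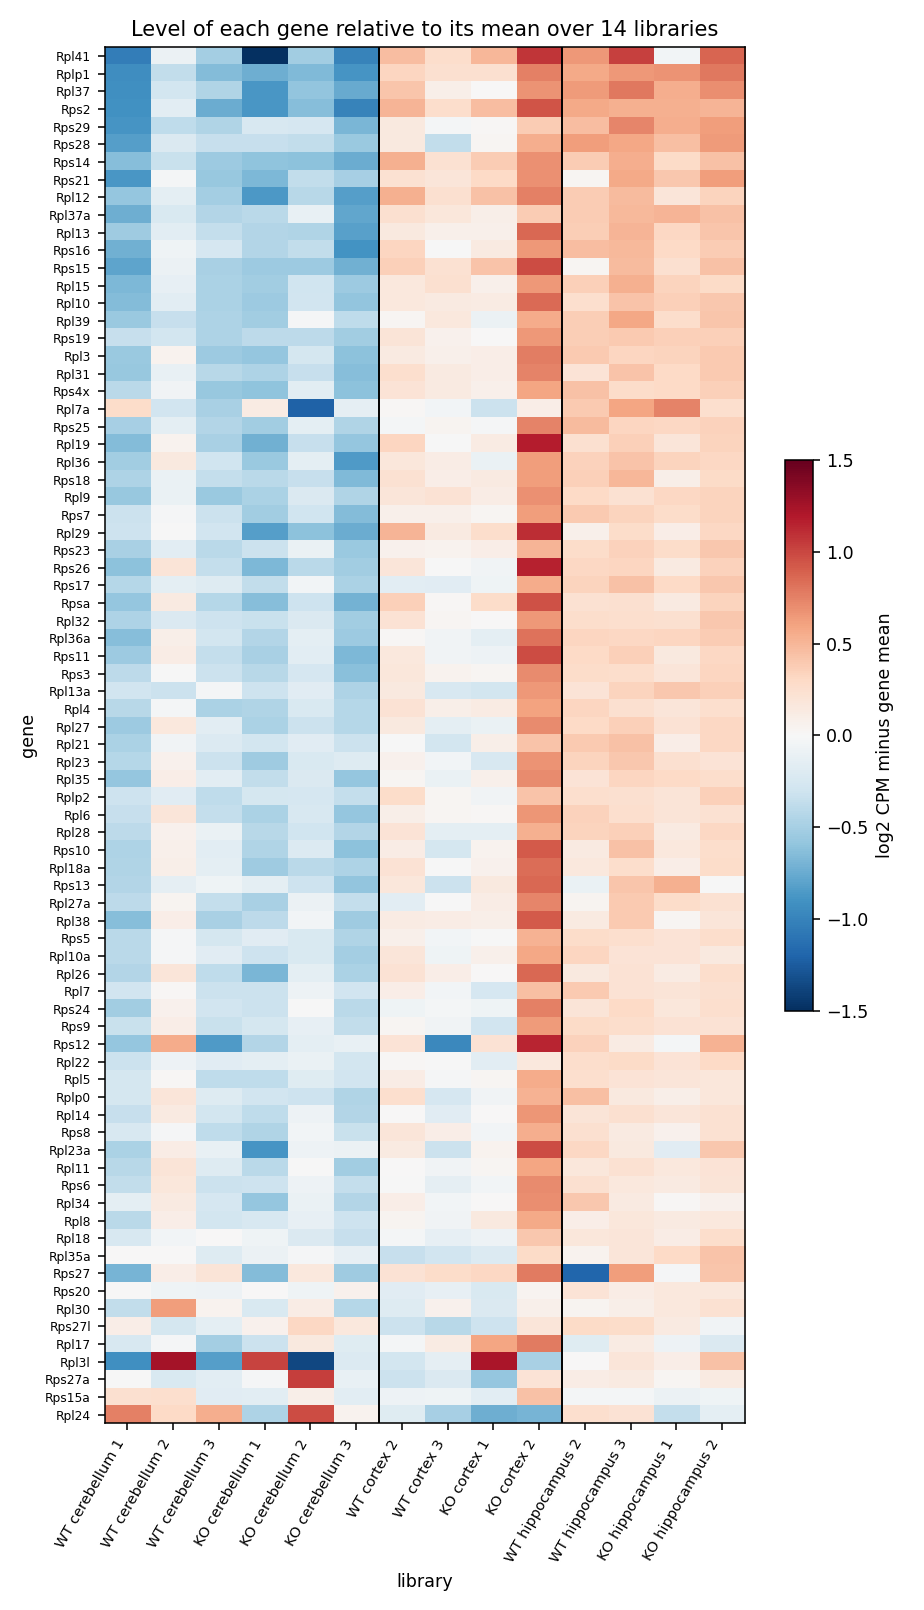
Each row is 1 of the 78 genes, ordered by its cerebellum against hippocampus log2 difference, and each column is a library, grouped by region; colour gives log2 CPM minus the gene's mean over the 14 libraries, on a scale limited to 1.5 in either direction. Most rows are blue across the cerebellar columns, and the knockout cortical library 2 is the darkest red column outside the cerebellum.

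The largest differences from the cortex belonged to Rpl41, Rps2 and the stalk protein Rplp1. Rpl41, which encodes an unusually short and basic large-subunit peptide, had a lowest, median and highest level of 28.5, 52.7 and 82.8 CPM in the cerebellum. It had 106, 122, 124 and 186 CPM in the cortex, and 85.7, 138, 162 and 180 CPM in the hippocampus. The cerebellar libraries all lay below the others, with the closest approach to the knockout hippocampal library 1 (85.7 CPM). The log2 difference was -1.33 (SE 0.26, adjusted p 0.0016 by edgeR) against the cortex and -1.41 (SE 0.26, adjusted p 0.00106) against the hippocampus.

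Rps2, a protein near the mRNA entry channel of the small subunit, had a lowest, median and highest cerebellar level of 46.0, 52.8 and 82.5 CPM. Its cortical levels were 111, 128, 131 and 178 CPM, and its hippocampal levels 132, 134, 134 and 137 CPM. No cerebellar library reached the lowest of the others. The log2 differences were -1.26 (SE 0.14) against the cortex and -1.24 (SE 0.14) against the hippocampus. Of its 50-base stretches only 28.7% occur in no other annotated gene, so its reads can be shared with near-identical copies.

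Rplp1, Rplp2 and Rplp0 form the acidic stalk that recruits elongation factors. Rplp1 had a lowest, median and highest cerebellar level of 27.6, 32.4 and 40.8 CPM, against 61.9, 62.3, 65.5 and 88.8 CPM in the cortex and 77.7, 82.6, 83.9 and 90.7 CPM in the hippocampus. Every cerebellar library was thus well below every other library. Its log2 differences were -1.09 (SE 0.12) against the cortex and -1.36 (SE 0.12, adjusted p 1.29e-06 by edgeR, the smallest among the members) against the hippocampus. Its partners differed less: Rplp2 by -0.47 and -0.55, and the stalk base Rplp0 by -0.35 and -0.43, all past the threshold. The Rplp0 calls were lost in 15 (cortex) and 6 (hippocampus) of 24 alternative settings, and those of Rplp2 in none.

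Rps14, Rpl12 and Rps15 completed the 6 largest differences from the cortex. Rps14, a platform protein of the small subunit, had 67.9 ± 6.73 CPM in the cerebellum (SD, n = 6), 140 ± 19.3 CPM in the cortex (SD, n = 4) and 135 ± 9.72 CPM in the hippocampus (SD, n = 4), a log2 difference of -1.04 (SE 0.10, adjusted p 2.24e-06 by edgeR) from the cortex. Rpl12, at the base of the stalk, also differed by -1.04, and Rps15, near the decoding site, by -1.02. Against the hippocampus the 6 largest differences were those of Rpl41, Rplp1, Rpl37 (-1.30), Rps2, Rps29 (-1.06) and Rps28 (-1.0), of which Rpl37 and Rps29 carry zinc-binding motifs.

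**Figure D3:**
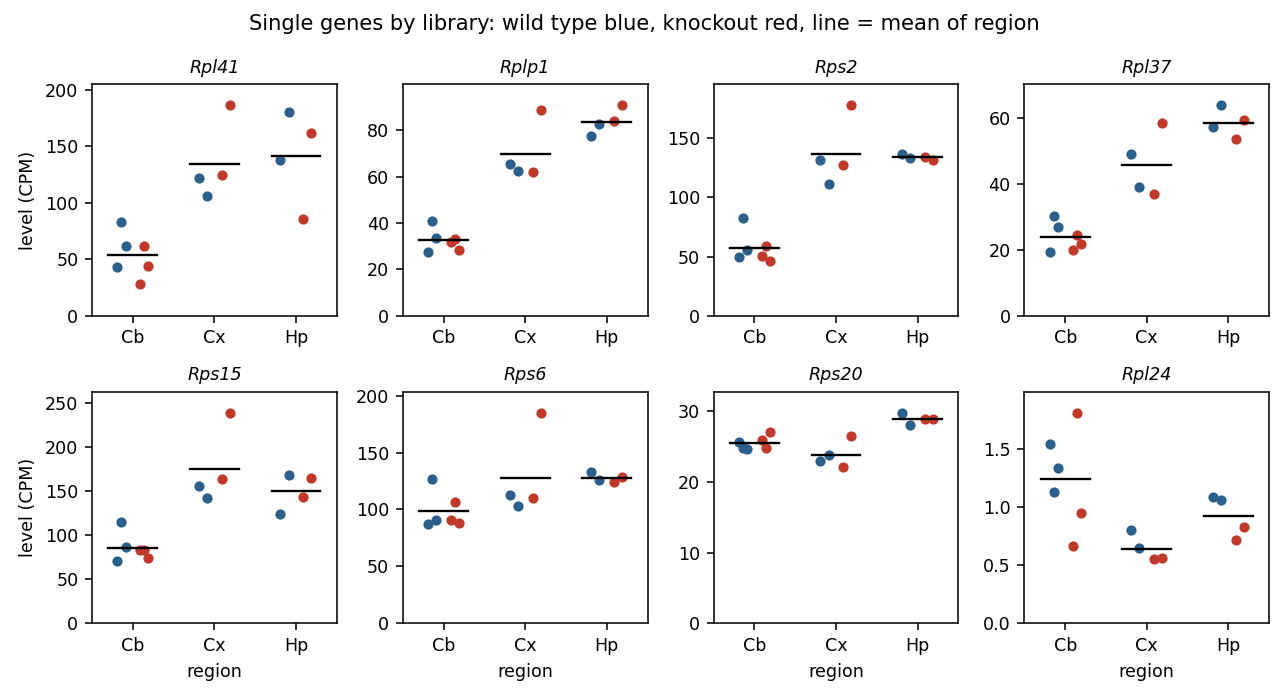
Level of 8 genes in each library (y axis, CPM, from 0) by region (Cb, cerebellum; Cx, cortex; Hp, hippocampus), with wild-type libraries in blue, knockout libraries in red and a line at the mean of each region. Rpl41, Rplp1, Rps2, Rpl37 and Rps15 are separated between the cerebellum and the other regions, Rps20 varies little, and Rpl24 is near 1 CPM throughout.

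A few members did not follow the family. Rpl24, a large-subunit protein, was the 1 member higher in the cerebellum than in the cortex, by 0.96 (SE 0.30, adjusted p 0.018 by edgeR). It rests on 13 to 56 reads a library, the lowest count of all members but Rpl3l. Its cerebellar levels of 0.663 to 1.81 CPM overlapped the cortical ones of 0.552 to 0.805 CPM. Only 18.3% of its 50-base stretches are found in no other gene. Another gene, Gm28037, is annotated over it on the same strand, and how reads in overlapping genes were counted is not given in the sources used here.

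Rps20, Rpl30, Rps15a, Rps27a and Rps27l were among the 9 members that passed in neither comparison. The others were Rps27, Rps12, Rpl23a and Rpl3l. Rps20 had 25.5 ± 0.928 CPM in the cerebellum (SD, n = 6), 23.8 ± 1.89 CPM in the cortex (SD, n = 4) and 28.8 ± 0.717 CPM in the hippocampus (SD, n = 4). Its cerebellar and cortical ranges overlapped, while its hippocampal levels lay above all 10 other libraries.

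Paralogous pairs were read side by side. Rps27 had 14.7 ± 4.25 CPM in the cerebellum (SD, n = 6), but only 1.35% of its 50-base stretches are found in no other gene, the lowest share of all members, and its hippocampal levels ran from 7.34 to 25.8 CPM. Its p53-responsive paralog Rps27l had 5.43 ± 0.766 CPM in the cerebellum, 4.59 ± 0.932 CPM in the cortex and 5.90 ± 0.637 CPM in the hippocampus, and neither of its cerebellar differences (0.24 and -0.12) passed. Rpl3, a core large-subunit protein, differed by -0.69 from the cortex and -0.76 from the hippocampus on the log2 scale, both past the threshold. Its muscle paralog Rpl3l had 5 to 29 reads a library, too few for its differences of -0.02 (SE 0.57) and -0.02 (SE 0.56) to be read. Rps4x, the X-linked small-subunit gene with no Y-linked partner in the mouse, differed by -0.65 and -0.73.

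Of the members with functions beyond the ribosome, Rpsa, the laminin receptor, differed by -0.82 and -0.63 on the log2 scale, both past the threshold. Rps6, the substrate of the S6 kinases whose phosphorylation is used as a readout of mTORC1, had 98.4 ± 15.9 CPM in the cerebellum (SD, n = 6), 127 ± 38.4 CPM in the cortex (SD, n = 4) and 128 ± 3.88 CPM in the hippocampus (SD, n = 4). Its difference from the hippocampus (-0.38, adjusted p 0.045 by edgeR) passed the threshold, and that from the cortex (-0.36, adjusted p 0.0564) did not. The first was lost in 13 of 24 alternative settings, and the second passed in 7.

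Per kilobase of annotated exon, the levels spread widely, although the ribosome holds most of these proteins in equal numbers. Rps15 was highest at 206 RPKM (CPM divided by the exon length in kilobases), followed by Rplp1 at 116, Rpl4 at 109 and Rpl38 at 105 RPKM. Rpl3l (0.292), Rpl24 (0.949), Rpl35a (3.99) and Rpl13a (4.70 RPKM) were lowest. The order depends on the length used. Per kilobase of the transcript tagged as principal (APPRIS) alone, Rps15 (259), Rpl41 (174.7) and Rpl4 (142.3) were highest, Rplp1 (115.8) ranked 11, Rpl35a ranked 64, and the lowest were Rpl3l, Rpl24, Rps20 and Rpl13a. Among the genes named first, Rpl4 differed by -0.59 and -0.57, Rpl38 by -0.65 and -0.50, Rpl13a by -0.37 and -0.58, and Rpl35a by 0.06 and -0.31, from the cortex and the hippocampus in that order. The Rpl13a and Rpl35a differences from the cortex did not pass, and the calls against the hippocampus were lost in 14 of 24 alternative settings for Rpl38 and in 15 for Rpl35a. Near-identical copies are common in the family. In 39 of the 78 genes under 50% of the 50-base stretches are found in no other gene, and 44 members overlap another annotated gene, 19 of them one on the other strand. Across the members, the share of unique stretches had a Spearman's rho of -0.04 with the level per kilobase and 0.12 with the cerebellum against cortex difference. That difference had a rho of -0.55 with the level per kilobase, so that members with more mRNA tended to lie further below the cortex, and of 0.26 with the exon length. These are descriptions across genes of the same libraries.

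Hippocampus and cortex differed less. No member passed the test (0 of 78, beside 12% of all genes, 5.49% higher and 6.48% lower). At an unadjusted p under 0.05 there were 7 members, 6 of them higher in the hippocampus, beside 24.6% of all genes. DESeq2 called 2 members higher and 1 lower, beside 6.75% and 8.14% of all genes. By limma voom 1 member was higher and 1 lower, beside 6.5% and 6.6% of all genes. The smallest adjusted p values by edgeR were 0.0515 for Rpl17 (a log2 difference of -0.46), 0.0592 for Rps29 (0.46) and 0.0658 for Rps20 (0.27). The members' median was 0.07. All 4 hippocampal libraries lay above all 4 cortical ones for 4 members (8.9% of all genes) and below them for 0 (9.89%). The count of calls moved with the knockout cortical library 2. Counts without that library are no separate support for a difference, because the members' own levels helped to set it apart. Without it and the wild-type cerebellar library 2, 19 members were higher in the hippocampus and 0 lower (9% of all genes higher), the median was 0.25, and all 4 hippocampal libraries lay above all 3 cortical ones for 44 members (16.2% of all genes). In 51 of the 78 members the mean was lowest in the cerebellum and highest in the hippocampus, and in 20 the cortex was highest and the cerebellum lowest.

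Related gene lists are set beside the 25.3% of all genes that were lower and the 23% that were higher in the cerebellum than in the cortex. Of 8 ribosome genes that the name rule leaves out, 4 were lower and 1 higher in the cerebellum than in the cortex, including Fau (-0.57), which encodes a fusion of a ubiquitin-like protein with Rps30, and Rps3a1 (-0.50), while the paralog Rpl7l1 was higher (0.28). Of 18 elongation factors and other TOP mRNAs, 8 were lower and 1 higher, with Nap1l1 at -0.92, Eef1a1, the general elongation factor, at -0.78, and Npm1 higher at 0.35. Of 28 ribosome biogenesis genes, 5 were lower, such as Tsr1 (-0.88), and 4 higher, such as nucleolin, Ncl (0.42). Of 21 mTORC1 and S6 kinase pathway genes, 10 were lower and 3 higher, led by Rps6ka1, a p90 ribosomal S6 kinase, at 3.00 and Rps6ka2 at -1.70. Of 77 mitochondrial ribosomal protein genes tested, 7 were lower and 6 higher, with a median of 0.01. Without the 2 libraries that stood apart, 2 of these were lower and 14 higher, with a median of 0.12. The biogenesis and mitochondrial lists thus had smaller shares of calls in either direction than all genes, and the other 3 had larger shares lower and smaller shares higher. Against the hippocampus, where 24.7% of all genes were lower and 22.6% higher, the counts lower and higher were 5 and 1, 9 and 1, 8 and 5, 8 and 5, and 11 and 9, in the same order of lists. The mitochondrial ribosomal genes and the cytosolic ones thus had medians of -0.03 and -0.57 there, and the difference between these medians was not tested.

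**Figure D4:**
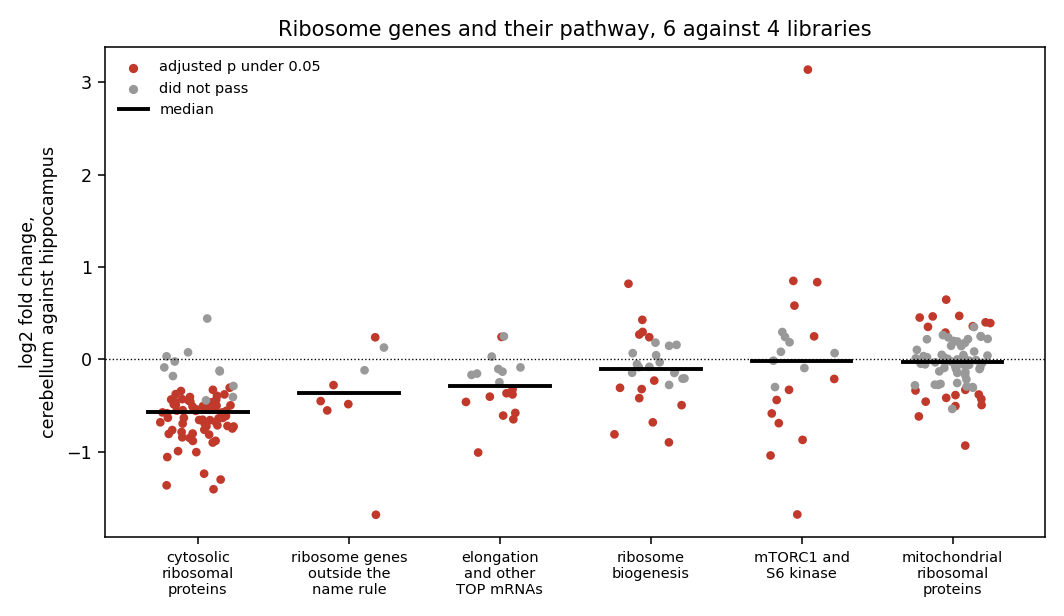
Log2 difference of cerebellum against hippocampus (y axis, 6 against 4 libraries) for each gene of the cytosolic ribosomal proteins and of 5 lists of related genes (x axis); red points passed an adjusted p of 0.05, grey points did not, and black lines are medians. The cytosolic ribosomal proteins centre on -0.57 and the mitochondrial ones on -0.03.

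Length and level were compared because ribosomal protein mRNAs are short and abundant. Protein-coding genes outside the family with 1 to 2 kb of exon had a median cerebellum against cortex difference of -0.08, where the members of that length had -0.52. Matched on level alone, 3318 protein-coding genes outside the family (31.4 to 81.4 CPM, the members' interquartile range) had a median of -0.01. Of these, 29.9% were lower. In bulk tissue, fewer cells of a type and less RNA per cell cannot be told apart. The labelled regions were matched by their markers: all 5 Purkinje cell markers and 5 of 6 granule cell markers were higher in the cerebellum than in the cortex, and all 6 cortical excitatory neuron markers lower. The microglial sum moved with the difference, with all 7 markers lower in the cerebellum in both comparisons (70.4 to 121 CPM against 228 to 348 CPM in the cortex and 258 to 302 CPM in the hippocampus). The summed astrocyte markers were at 2444 to 3587, 6097 to 7074 and 6328 to 6525 CPM in the same order of regions, with 2 of 8 markers lower and 2 higher than in the cortex. No marker of either list was at 0 in any library, and their part in the result was not tested.

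Within groups, the members moved together from library to library. After each group's mean was removed, the median correlation between pairs of members over the 14 libraries (8 residual degrees of freedom) was 0.78, and 94.9% of pairs were positive. The medians were 0.71 for the elongation factor and TOP list, 0.42 for the mitochondrial ribosomal genes, 0.26 for ribosome biogenesis and -0.002 for the mTORC1 list. These are descriptions of points that share libraries and depth. They leaned on the 2 libraries that stood apart. Without these, and without the knockout cortical library then alone in its group, the medians over 11 libraries (6 residual degrees of freedom) were 0.52 for the members, 0.27 for the elongation factor and TOP list, 0.06 for the mitochondrial ribosomal genes, 0.08 for biogenesis and -0.06 for the mTORC1 list, and 86.2% of the members' pairs were positive. Over all 14 libraries, Rpl7a (-0.26), Rpl3l (-0.17) and Rpl24 (0.14) followed the mean of the other members least, and over the 11 libraries Rps20 (-0.90), Rpl7a (-0.81) and Rpl3l (-0.58) did.

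The libraries that stood apart did so across nearly the whole family. The knockout cortical library 2 was the highest of its region for 76 of the 78 members, with a median deviation from the region of 0.42 on the log2 scale, and the wild-type cerebellar library 2 was highest for 62, with 0.32. The other 12 libraries had median deviations from -0.19 to 0.10. In the knockout cortical library 2, the 7 striatal markers summed to 652 CPM (72.5 to 85.9 CPM in the other cortical libraries), the 7 choroid plexus markers to 614 CPM (18.7 to 37.8 CPM) and the 10 oligodendrocyte markers to 5866 CPM (1839 to 3746 CPM). It was also the deepest library, with 38.8 M reads against 20.1 M to 28.5 M in the others. In the wild-type cerebellar library 2 the oligodendrocyte markers summed to 9191 CPM, against 2335 to 4433 CPM in the other cerebellar libraries. Protein-coding genes outside the family of 1 to 2 kb deviated by 0.24 and 0.11 in these libraries. Some marker sums departed in other libraries too. The choroid plexus sum was 1171 CPM in the wild-type hippocampal library 2 (91.15 to 140.8 CPM in the others of its region). It was 35.13 CPM in the wild-type cerebellar library 1 (662 to 1395 CPM). The 6 meningeal fibroblast markers summed to 204.7 CPM in the wild-type cortical library 2 (37.05 to 73.98 CPM). What part any of these has in the members' levels was not tested.

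Knockout and wild type were compared in each region, and no member passed the test. In the cerebellum, cortex and hippocampus, 0 of 78 members and 0% of all 24680 genes were called (edgeR), and the same held for the mean of the 3 regions (limma) and for the 3 differences between regional effects. At an unadjusted p under 0.05 there were 1, 6 and 0 members, and 785, 1825 and 472 of all genes, and DESeq2 and limma voom likewise called no member. No label says that the libraries of a group come from separate mice, so these p-values measure the spread between libraries only.

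The medians leaned apart by region, and those of the cortex and the cerebellum rested on 1 library each. In the cortex the members' median was 0.30, with 75 of 78 positive, and in the cerebellum it was -0.13, with 67 negative. The hippocampal median was -0.03, with 51 negative. Without the knockout cortical library 2 the cortical median was -0.05, and without the wild-type cerebellar library 2 the cerebellar median was 0.02. With both left out the medians were 0.02 in the cerebellum, -0.04 in the cortex and -0.03 in the hippocampus, with 44, 27 and 27 of the 78 members positive. High levels of the members helped to set both libraries apart, so these shifts follow in part from that choice. The mitochondrial ribosomal genes leaned the same way in the cortex, with 72 of 77 positive and a median of 0.23, and had 43 positive and a median of 0.02 without the 2 libraries.

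**Figure D5:**
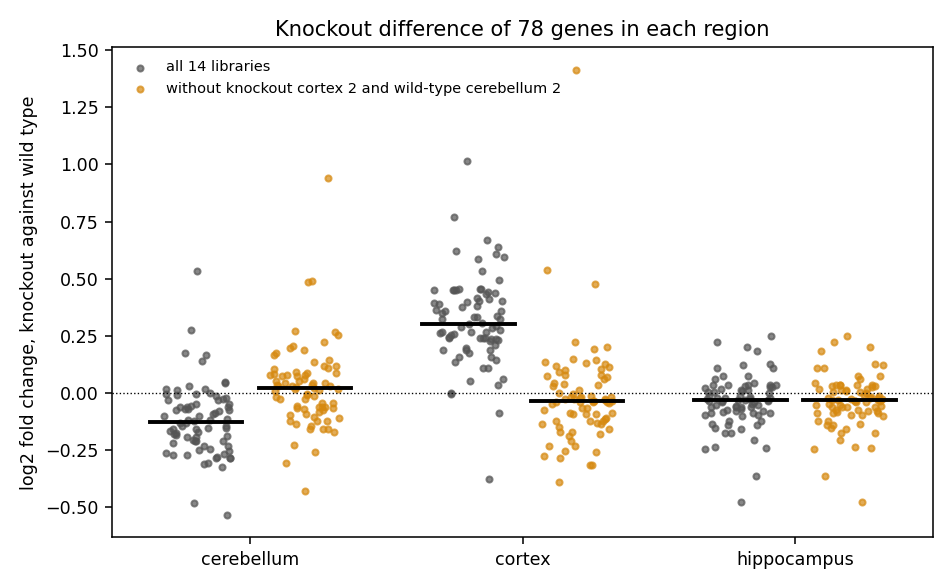
Log2 difference of knockout against wild type (y axis) of each of the 78 genes in each region (x axis), from all 14 libraries (grey) and without the knockout cortical library 2 and the wild-type cerebellar library 2 (orange); black lines are medians. The cortical median goes from 0.30 to -0.04 and the cerebellar one from -0.13 to 0.02. The members' own levels helped to set the omitted libraries apart.

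The members nearest to a call differed between regions. In the cerebellum it was Rpl29, a basic large-subunit protein, with 26.2, 30.4 and 27.7 CPM in the knockout libraries 1 to 3 and 37.5, 46.5 and 38.2 CPM in the wild-type ones. The groups did not overlap. Its log2 difference was -0.53 (SE 0.19, p 0.0145, adjusted p 1 by edgeR). Next came Rps27a (0.53), which encodes a ubiquitin fusion and owed its mean to 42.0 CPM in the knockout library 2 against 17.4 to 20.4 CPM in the other 5, and Rpl12 (-0.29). In the cerebellum, knockout levels lay wholly below wild-type levels for 2 members (4.52% of all genes) and wholly above for 0 (4.78% of all genes).

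Rpl41 and Rpl29 passed when the cerebellar libraries were fitted with the replicate number as a block. That fit called 104 genes (0.421% of those tested), these 2 among them. Rpl41 had 28.5, 61.5 and 44.0 CPM in the knockout libraries 1 to 3 and 42.9, 82.8 and 61.7 CPM in the wild-type ones, so that the groups overlapped but the knockout was lower in each of the 3 pairs. Its blocked log2 difference was -0.50 (SE 0.09, adjusted p 0.0155 by edgeR), and that of Rpl29 -0.53 (SE 0.09, adjusted p 0.0195), also lower in each pair. The members' blocked median was -0.12. By pair, 35, 65 and 59 of the 78 members were lower in the knockout.

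In the cortex, Rpl17 (0.64, SE 0.20, adjusted p 0.658), Rpl27a (0.53, adjusted p 0.671) and Rps10 (0.62, adjusted p 0.675, all by edgeR) had the smallest p. Rpl17 had 32.6 and 37.3 CPM in the knockout libraries 1 and 2 and 21.2 and 23.6 CPM in the wild-type libraries 2 and 3. It stood apart in both knockout libraries, whereas Rps10 had 51.1 CPM in the knockout library 1, inside the wild-type range of 40.8 to 52.9 CPM, and 93.1 CPM in library 2. Cortical knockout levels lay wholly above wild-type levels for 15 members (14% of all genes) and wholly below for 1 (13.3% of all genes). Without the knockout library 1, which leaves library 2 alone to stand for the group, 17 members and 11.7% of all genes were called. In the hippocampus the smallest p belonged to Rpl35a (0.25), Rps18 (-0.24) and Rpl21 (-0.21), with an adjusted p of 1 by edgeR each. The largest differences between regional effects were those of cortex minus cerebellum, with a median of 0.44. There, 10 members (and 5.3% of all genes) had an unadjusted p under 0.05, led by Rpl29 (0.95, SE 0.30, adjusted p 0.787 by edgeR). That median was -0.06 without the 2 libraries. Hippocampus minus cerebellum and hippocampus minus cortex had medians of 0.10 and -0.36, and -0.05 and 0.00 without them.

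Counts were simulated with the depths of these libraries and the same spread for every gene. Of the genes changed by 2-fold, the same fit recovered 38% in the cerebellar and 16% in the cortical knockout comparison. In the comparison of cerebellum with cortex it recovered 74%. Of those changed 4-fold it recovered 99%, 98% and 100%. The changed genes were drawn from all genes above a set mean level, so these shares are not specific to the members. Smaller changes and the hippocampus were not simulated. Nor were shifts shared by many genes of a library, as in the libraries that stood apart, so the shares may not hold for these data.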

How the data were processed

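Total RNA of 3 brain regions was sequenced in 14 libraries. The authors deposited 1 table of raw read counts per gene, without normalization. Per the submitters' processing notes, Trim Galore 0.6.4, cutadapt 2.10, STAR 2.7.3a, featureCounts 2.0.1 and the build GRCm38.p6 were used. These notes do not state the annotation release, the strand setting or the handling of reads with several alignments. Reads from retrocopies and antisense genes could therefore enter or leave a gene's count. Gene symbols and exon lengths came from GENCODE M21, in which 99.2% of the gene IDs matched, and promoters from RefSeq.

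Library totals were 20.1 M to 38.8 M reads (median 24.7 M). No libraries held identical counts. Genes were filtered with filterByExpr, scaled by TMM and fitted with edgeR 4.0.16 (robust quasi-likelihood) over all 14 libraries and 6 groups, with R 4.3.3. The mean of 3 regions used limma 3.58.1 voom with genotype and number as a block (correlation 0.096). DESeq2 1.42.0 and other settings served as alternatives. Calls were made at an adjusted p of 0.05 over 24680 genes. The fit was tested on simulated data with 200 changed genes. RPKM divides CPM by the union of annotated exons.

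Cerebellar libraries carry numbers 1 to 3 in both genotypes. Over 18405 genes, the deviations of same-numbered libraries from their group means correlated with r of 0.26, 0.73 and 0.33, so the blocked fit is given beside the cerebellar result. The labels do not say what a number stands for, and the crossed numbers 1 and 3 correlated as well (0.31 and 0.43).

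The genes were named by a rule. It took the members with the smallest p in each knockout comparison, those with the largest called differences (or the smallest p where none was called) in each regional one, the 4 highest and 4 lowest per kilobase, paralogs, Rps6, Rplp0 to Rplp2 and Rpsa, and for each related list up to 2 genes a direction by smallest p. The members, lists and markers were chosen with earlier results of these data known. The sequence motifs, the shares of unique sequence, the length and level classes and the fits without 2 libraries were added after the data were seen. Rps20, Rpl30 and others outside the regional comparisons were named after their values were seen.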

Additional observations from a re-analysis of the deposited data

How the results depend on the processing

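The members' median stayed below 0 in both cerebellar comparisons, and calls were lost in several alternatives. Of the called members, 15 of 60 (cerebellum against cortex) and 33 of 67 (cerebellum against hippocampus) stayed called in all 24 alternatives. Those were also the counts between the wild-type groups alone, which hold fewer samples. When 1 library was left out the counts ranged from 37, without the knockout cortical library 2, to 68, and from 49 to 68. Total counts in place of TMM moved the median of all genes to 0.19 and 0.18. They left 40 and 50 members lower (19.8% and 19.5% of all genes) and 3 and 0 higher (32% and 30.8% of all genes). Over the alternatives the medians ranged from -0.77 to -0.29 and from -0.65 to -0.40. For hippocampus against cortex the count was 1 with RLE factors and between the knockout groups alone, 4 with total counts, 3 with DESeq2, 2 with limma voom, 3 with limma and a replicate block over regions, 19 without both libraries named in the text, and 0 to 9 with 1 library left out, the highest without the knockout cortical library 2. Of all genes, 5.46% were higher and 6.54% lower with RLE factors, and 5.78% and 6.14% with total counts. Between the knockout groups alone these shares were 1.75% and 2.01%. They were 6.75% and 8.14% with DESeq2, 6.5% and 6.6% with limma voom, and 7.48% and 7.59% with the replicate block. In these settings the members were thus called no more often than all genes. The members' median was -0.124 between the knockout groups alone and ranged from -0.07 to 0.24 with 1 library left out.

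The knockout count of 0 members became 2 with the replicate block in the cerebellum, where all genes called went from 0 to 104. No paired analysis was possible in the cortex or the hippocampus because their genotypes share only 1 number. The counts ranged from 0 to 17 in the cortex and from 0 to 7 for cortex minus cerebellum when 1 library was left out, the highest without the knockout cortical library 1. The fit with these highest counts leaves the knockout cortical library 2 alone in its group. Calls among all genes rose there too in both comparisons, so the rise was not specific to the members. The medians of the knockout comparisons changed sign. Without both libraries they were 0.022 in the cerebellum, -0.036 in the cortex, and -0.061, -0.05 and 0.002 for cortex minus cerebellum, hippocampus minus cerebellum and hippocampus minus cortex. With 1 library left out they ranged from -0.219 to 0.022 in the cerebellum, -0.054 to 0.526 in the cortex, -0.065 to 0.001 in the hippocampus, -0.06 to 0.136 in the mean of 3 regions, and for the last pair of differences from -0.05 to 0.191 and from -0.575 to 0.022. Fits that leave 1 cortical or hippocampal library of a genotype assume that it varies like the other groups.

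Some single members outside the calls changed sign against a region. Rpl3l against the cortex was 0.137 with total counts, 0.436 between wild-type groups and -0.567 to 0.522 with 1 library left out. Against the hippocampus it was 0.138, 0.142 and -0.569 to 0.195. Rpl35a against the cortex was -0.136 between knockout groups and -0.034 to 0.2 with 1 library left out. Rps27l against the hippocampus was 0.047 with total counts and 0.137 between knockout groups, and Rps27 ranged from -0.593 to 0.314. The cause was not tested. Differences not printed above were of 16, 16 and 15 members named for their level, paralogs or role in the cerebellar, cortical and hippocampal knockout comparisons and of 16 in hippocampus against cortex. None was called, and 11, 9, 7 and 10 of them changed sign in at least 1 alternative. In the same order 0, 2, 0 and 3 passed in at least 1 alternative. With 2 libraries in 4 of the 6 groups, the number of libraries and, for Rpl24 and Rpl3l, the depth limit what could be called.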
